A study of Mus musculus with 9 samples.

Results

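Mitosis and G2/M genes encode the proteins that a cell makes just before and during division. A fixed list of 48 such genes was read out of RNA-seq of iNKT1 cells from mouse thymus, liver and spleen. The list is defined by function and not by a threshold on measured values, but it was drawn up with earlier results of these data known. All 48 genes were found by symbol among the 14004 genes of the deposited table. The cells studied, iNKT cells (for invariant natural killer T), carry a T cell receptor that recognises lipids on CD1d, and their iNKT1 subset makes T-bet, the product of Tbx21. There were 9 libraries, 3 each from thymus, liver and spleen. In every group the cells were untreated, the strain was C57BL/6 and the genotype was Tbx21CreTg;Rosa26-LSL-YFP+/+, a Cre transgene driven by Tbx21 with a YFP reporter that Cre switches on. All 3 groups carry the transgene and the reporter, and no group lacks them. The age and number of the mice behind each library, and how the cells were purified, are not given in the sources used here. The series describes the 3 replicates of a tissue as independent.

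As background, entry into mitosis is driven by the kinase CDK1 bound to cyclin B, which is amplified by Aurora A and Polo-like kinase. Chromosomes are then condensed and attached to the spindle through their kinetochores, the spindle checkpoint holds back the anaphase-promoting complex until all are attached, and cytokinesis separates the daughters. Most of these genes are transcribed together in G2 and are held down in resting cells by the DREAM complex, which binds a short promoter element called the CHR, while the factor NF-Y binds nearby CCAAT boxes. In iNKT cells, division is known mainly from early thymic stages, before the mature iNKT1 state. In bulk RNA, fewer dividing cells and less RNA of these genes per cell cannot be told apart.

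Promoter sequences are shown for 6 members on which the results below turn. Mki67, Cdk1 and Top2a are examples that carry both elements. Smc2 is shown because it was lowest in spleen. Ccnb1 and Nuf2 are shown because they had at most 3 reads in every thymus library, as Cdk1 did. The stretches are from RefSeq (GRCm38.p6) and are written 5′ to 3′ on the coding strand. They are the bases just before the transcription start, 150 where no annotated exon intrudes. Capitals mark CHR elements (TTTGAA or TTCGAA, or their reverse complement) and CCAAT boxes (or ATTGG, the reverse complement).
Mki67, chr7:135716380-135716529, minus strand: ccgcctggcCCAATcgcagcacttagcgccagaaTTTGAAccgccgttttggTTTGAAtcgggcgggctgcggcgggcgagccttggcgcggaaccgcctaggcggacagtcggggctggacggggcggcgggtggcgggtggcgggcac
Cdk1, chr10:69352939-69353062, minus strand: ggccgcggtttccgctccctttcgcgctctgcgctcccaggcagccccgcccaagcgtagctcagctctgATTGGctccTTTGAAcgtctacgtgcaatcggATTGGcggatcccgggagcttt
Top2a, chr11:99024190-99024339, minus strand: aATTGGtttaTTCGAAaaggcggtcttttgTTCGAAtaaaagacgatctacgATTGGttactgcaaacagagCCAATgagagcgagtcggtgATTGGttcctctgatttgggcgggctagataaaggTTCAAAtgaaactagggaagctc
Smc2, chr4:52439071-52439220, plus strand: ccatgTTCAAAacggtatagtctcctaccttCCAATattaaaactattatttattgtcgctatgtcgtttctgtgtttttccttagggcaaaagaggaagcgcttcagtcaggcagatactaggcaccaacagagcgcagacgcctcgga
Ccnb1, chr13:100786571-100786636, minus strand: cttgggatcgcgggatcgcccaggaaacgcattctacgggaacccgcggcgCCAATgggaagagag
Nuf2, chr1:169531465-169531614, minus strand: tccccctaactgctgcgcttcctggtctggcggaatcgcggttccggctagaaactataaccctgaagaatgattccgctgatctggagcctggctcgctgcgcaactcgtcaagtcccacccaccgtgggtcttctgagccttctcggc
The Cdk1 stretch stops 26 bases and the Ccnb1 stretch 84 bases before the RefSeq start, because some annotated transcripts begin in the bases left out. In these stretches Mki67, Cdk1, Top2a and Smc2 hold at least 1 CHR element and at least 1 CCAAT box, Ccnb1 holds a CCAAT box and no CHR element, and Nuf2 holds neither.

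The promoter table covered 41 of the 48 genes with 44 windows of 300 bases, from 250 before to 50 after the start. At least 1 CHR element (TTTGAA or TTCGAA, either strand) was present in 32 of the 41 genes, or 78.05%, against 21.66% of all 27025 genes in the table. A CCAAT box on either strand was also present in 32 of the 41 genes, against 41.06% of all genes. Both motifs stood in one window in 29 of the 41 genes, or 70.73%, against 8.614% of all genes. These are matches of letters and not measured binding. The median position was 15 bases before the start for CHR matches and 68 bases before it for CCAAT matches. The median log2 fold change of liver over thymus was 3.24 in the 32 genes with a CHR match (range -0.29 to 5.37) and 1.96 in the 9 genes without one (range -0.35 to 6.76), so the ranges overlapped widely. With and without a match the medians were 1.79 and 0.71 for spleen over thymus, and 1.01 and 1.54, the other way round, for liver over spleen.

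**Figure D1:**
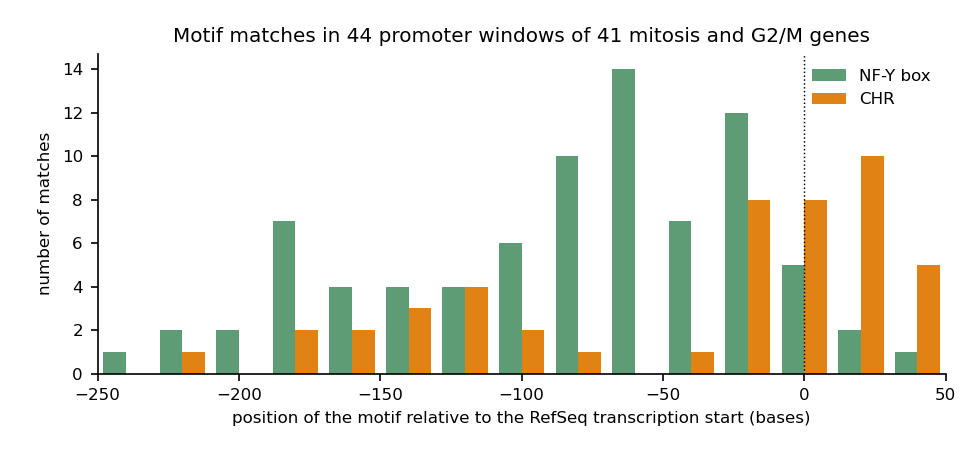
Number of motif matches (vertical axis) by position relative to the RefSeq transcription start in bases (horizontal axis, bins of equal width) in the 44 promoter windows of 41 mitosis and G2/M genes. The 81 NF-Y box matches have their median 68 bases before the start, and the 47 CHR matches lie closer to it, with a median 15 bases before the start.

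Depth and the levels of cell type markers differed between libraries. The deposited normalised read counts are scaled reads, and the reads recovered from them came to 18491958 to 39917843 per library, except for 3869463 in liver replicate 3. One read is worth 0.59 to 1.25 normalised counts, but 6.05 in liver replicate 3. Where no read was recovered the value was 0 or a small offset of about 0.02 to 0.04 in the thymus libraries and 0.76 in liver replicate 3. Thymus replicates 1 and 2 detected the fewest genes, 10476 and 11180, against 11781 to 13038 in the other 7. The 10 markers of iNKT1 and T cells summed to 100600 to 173400 normalised counts in every library, with Cd3e at 25650 to 46800. Of the immature thymocyte list (8 genes, 6 in the table), the sum was 81.1 to 1045 in thymus, 336 to 1282 in liver and 233 to 312 in spleen, and Rag1 reached 486 in thymus replicate 3 and at most 0.81 in the other 8, which is no more than 1 read. The B cell list (4 of 6 in the table) summed to at most 0.18 in thymus but to 747 in liver replicate 1 and 2122 in spleen replicate 1, and the myeloid list (5 of 7) was also highest in those 2 libraries, at 1298 and 3040. Hepatocyte genes (5 of 6) summed to 1350 to 1709 in liver, mostly Alb, against at most 269.6 elsewhere. The erythroid list (5 of 7) ranged from 2.45 to 606. The part of these markers in the results below was not tested.

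As a group the 48 genes were lowest in thymus and highest in liver, but the libraries of each tissue differed widely. Their mean log2(normalised read count + 1) was 3.495, 4.99 and 5.68 in thymus replicates 1, 2 and 3, or 4.72 ± 1.12 (SD, n = 3). In liver it was 6.61, 7.02 and 8.48, or 7.37 ± 0.98 (SD, n = 3), and in spleen 5.61, 6.00 and 7.49, or 6.37 ± 0.99 (SD, n = 3). All 3 liver libraries lay above all 3 thymus libraries, whereas spleen overlapped both. In each tissue the mean rose from replicate 1 to 2 to 3. Without liver replicate 3 the liver mean was 6.82, and without thymus replicate 1 the thymus mean was 5.33. The mean over all 13309 genes tested moved less, from 6.70 in thymus replicate 1 to 7.81 in liver replicate 2. Thymus replicate 1 had the lowest mean both of these genes and of all genes, and the shallow liver replicate 3 had the highest mean of these genes.

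Counted as reads, the 48 genes together drew 877, 996 and 1151 reads per 1000000 non-mitochondrial reads in thymus, 1817, 1218 and 2564 in liver, and 1096, 1007 and 1493 in spleen. Liver was again above thymus without overlap. This sum is carried by few genes: Mki67, Smc4, Smc2, Top2a and Bub3 made up 58.3% to 74.5% of the summed values in each library. With those 5 left out, the other 43 drew 229.8, 255 and 398 reads on the same scale in thymus, 668, 425 and 1063 in liver, and 334, 420.1 and 577 in spleen. Liver and thymus still did not overlap in that sum, but the gap between 398 and 425 was narrow.

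**Figure D2:**
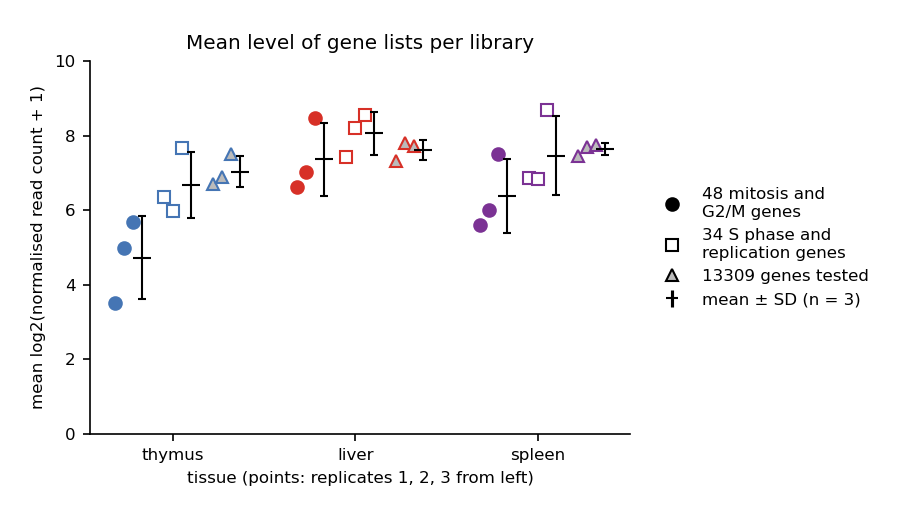
Mean log2(normalised read count + 1) per library (vertical axis) of the 48 mitosis and G2/M genes, of 34 S phase and replication genes and of all 13309 genes tested, by tissue (horizontal axis); points are replicates 1, 2 and 3 and bars the mean ± SD (n = 3). The mitosis and G2/M genes run from 3.495 to 5.68 in thymus and from 6.61 to 8.48 in liver, a wider step than that of all genes.

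Many members were at or near the detection limit. At most 3 reads were recovered for 26, 17 and 11 of the 48 genes in thymus replicates 1, 2 and 3, against 25.2%, 24.1% and 13.1% of all genes tested. In liver the number was 6, 2 and 1 of 48, against 15.7%, 6.49% and 16.8% of all genes, and in spleen it was 9, 6 and 1, against 13.5%, 8.48% and 7.56%. The 3 reads stand for the limit that a count of 0 allows and cover counting error only. Only 17 members had more than 3 reads in all 9 libraries, and 7 had at most 3 reads in all 3 thymus libraries. The highest value of a gene lay in a liver library for 30 members, of which 21 were in liver replicate 3, against 25.99% and 7.58% of all genes tested. For 25 members the lowest value was in thymus replicate 1, as it was for 23.7% of all genes.

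**Figure D3:**
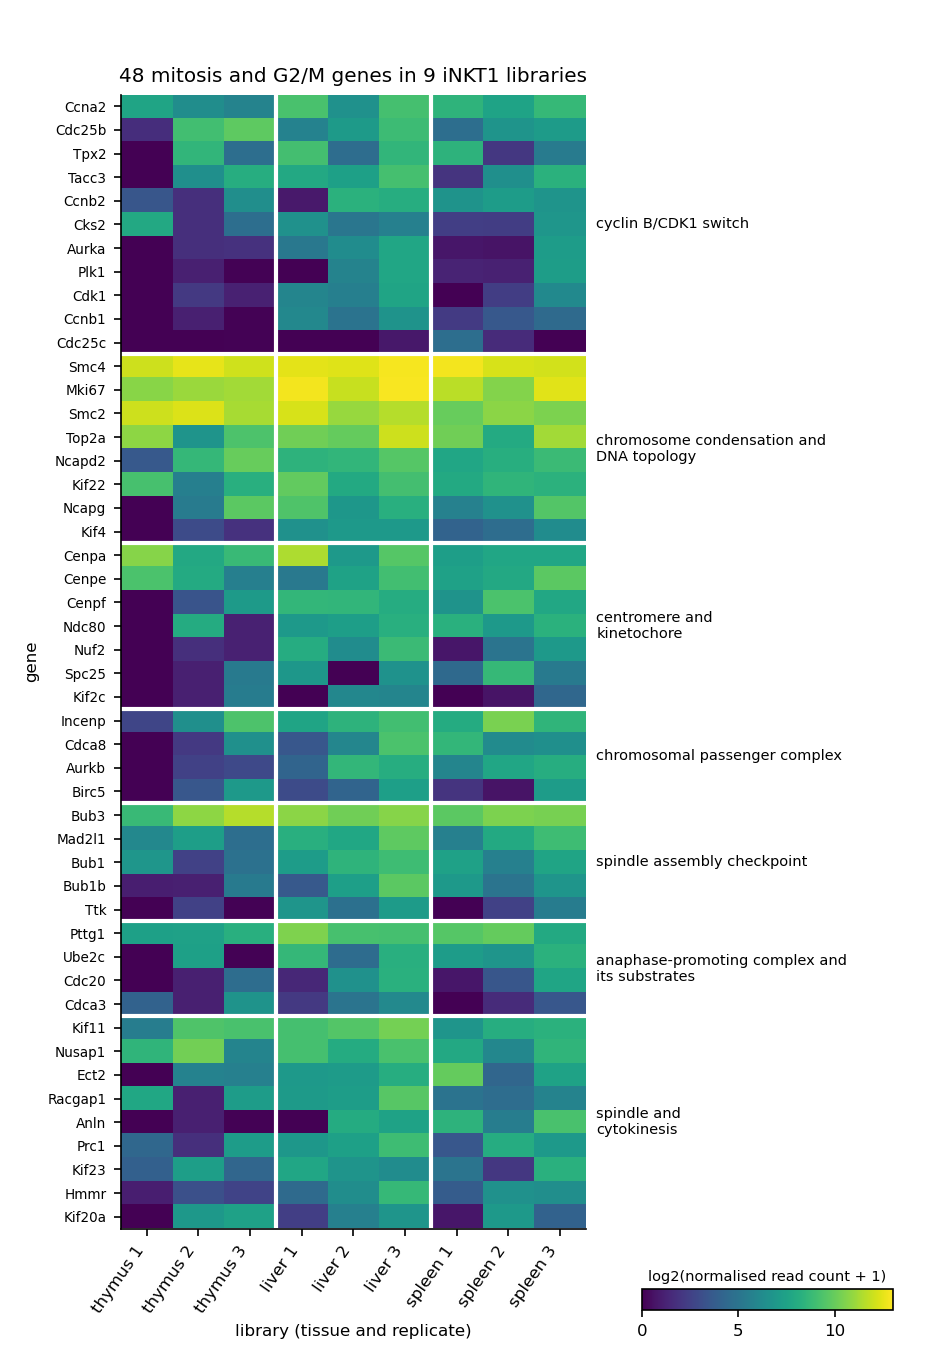
Log2(normalised read count + 1) (colour, from 0 to 13) of the 48 genes (rows, grouped by role and ordered by mean) in the 9 libraries (columns). Dark cells, at or near no read, are most frequent in thymus replicate 1, where 26 of the 48 genes had at most 3 reads, and rarest in liver replicate 3 and spleen replicate 3, with 1 each.

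Differences between tissues were tested with limma-trend on log2(value + 1) over all genes, with Benjamini-Hochberg adjustment. Of the 48 genes, 47 passed the filter on low values, and Cdc25c, a CDK1-activating phosphatase, did not. None of the 47 passed at an adjusted p of 0.05 in any comparison. For liver over thymus 0.323% of all genes passed, for spleen over thymus 0.398%, for liver over spleen 0.015%, and for any tissue difference 0.346%. The smallest adjusted p of a member was 0.194 for liver over thymus (Nuf2), 0.186 for spleen over thymus (Smc2) and 0.9999 for liver over spleen. edgeR on the recovered reads also passed 0 members, with 0.165%, 0.278% and 0.015% of all genes passing in the 3 comparisons and 0.225% for any tissue difference. By edgeR without adjustment, 13 members had p under 0.05 with a higher level in liver than thymus and 0 with a lower one, against 6.26% and 5.04% of all genes. In spleen against thymus edgeR gave 4 higher and 1 lower, against 6.32% and 4.94%, and for liver over spleen 2 higher and 0 lower, against 1.63% and 1.41%.

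Without adjustment, 16 members had p under 0.05 with a higher level in liver than thymus and 0 with a lower one, against 7.72% and 3.92% of all genes. For spleen over thymus it was 5 higher and 1 lower, against 7.56% and 4.13%, and for liver over spleen 2 higher and 0 lower, against 1.72% and 1.31%. The 16 of liver over thymus became 8 without liver replicate 3, where 8.19% of all genes had such a p in either direction, and 6 without both that library and thymus replicate 1, where it was 9.64%. The 2 of liver over spleen became 0 without liver replicate 1 or without spleen replicate 1, and 6 without spleen replicate 3. The shares of all genes with such a p in either direction were then 2.53%, 2.45% and 2.86%. In the test of any tissue difference 11 members had an unadjusted p under 0.05, against 9.95% of all genes. The 3 comparisons share libraries pairwise, so their counts are not separate pieces of evidence.

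The fold changes of the members were shifted upwards against all genes. The median log2 fold change of liver over thymus was 2.57 over the 47 members and 0.29 over all genes, with 45 members above 0 and 2 below, against 59.9% of all genes above 0. For spleen over thymus the median was 1.64 against 0.33, with 34 members above 0 and 13 below, against 61.2% above 0. For liver over spleen it was 1.06 against -0.02, with 38 above 0 and 9 below, against 48.9%. Without thymus replicate 1 the median of liver over thymus was 1.90, without liver replicate 3 it was 1.97, and without both it was 1.41 against 0.15 over all genes. Leaving out spleen replicate 3 moved the median of spleen over thymus to 0.53, against 0.30 over all genes. On the read scale of edgeR the medians were 1.58, 1.39 and 0.78, and those of all genes -0.02, 0.03 and -0.05, with 39, 34 and 41 members above 0. The 6 members that were above 0 for liver over thymus by limma-trend and below 0 by edgeR were Bub3, Cdc25b, Cdca3, Cks2, Kif20a and Nusap1.

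**Figure D4:**
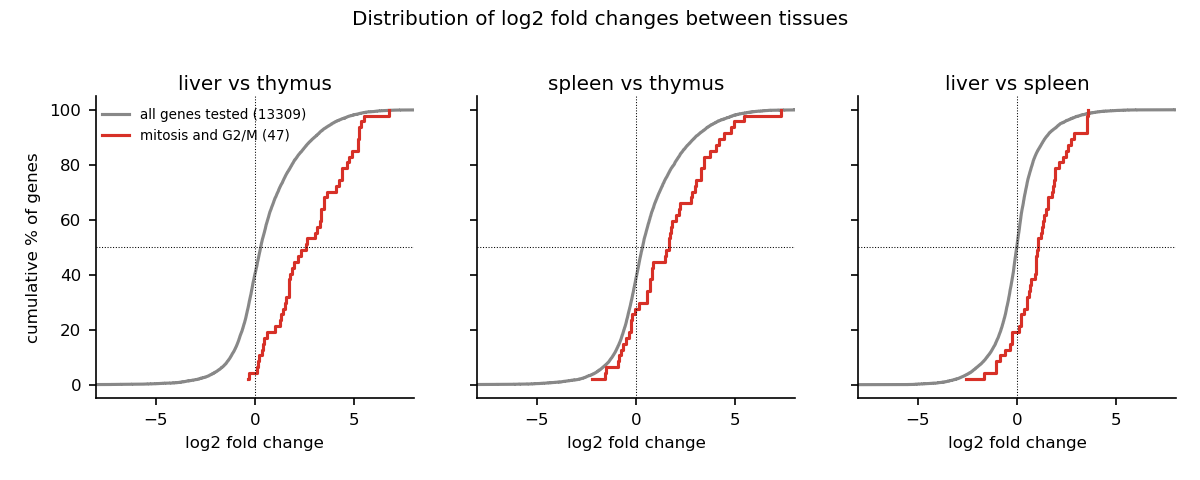
Cumulative percentage of genes (vertical axis) by log2 fold change on the log2(value + 1) scale (horizontal axis) for the 3 comparisons, for the 47 mitosis and G2/M genes tested and for all 13309 genes tested. The members' curve lies to the right of that of all genes, with medians of 2.57, 1.64 and 1.06 against 0.29, 0.33 and -0.02.

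Counting members whose 3 values in one tissue all exceed the 3 in the other gave 14 higher in liver than thymus and 0 lower, against 9.61% and 5.73% of all genes. In spleen against thymus it was 7 higher and 2 lower, against 9.29% and 6.03%, and for liver over spleen 5 higher and 0 lower, against 5.97% and 6.77%. With thymus replicate 1 and liver replicate 3 both left out, 17 were higher and 5 lower in liver than thymus, against 20.1% and 16.05% of all genes with the same libraries.

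DESeq2 on the recovered reads called more genes, 3.81% for liver over thymus, 4.3% for spleen over thymus and 0.191% for liver over spleen. By that test, 7 members rose and 0 fell in liver over thymus, against 2.05% and 1.76% of all genes: Nuf2 (adjusted p = 0.000998), Aurkb (0.00245), Anln (0.00433), Hmmr (0.0230), Kif4 (0.0356), Mki67 (0.0366) and Ccnb1 (0.0393). In spleen over thymus it called 3 higher, Anln (adjusted p = 0.000457), Aurkb (0.00445) and Nuf2 (0.0473), and 1 lower, Smc2 (0.0172), against 2.2% and 2.1% of all genes. For any tissue difference it called Nuf2 and Anln, against 3.24% of all genes, and neither of them with thymus replicate 1, liver replicate 3 or both left out. It called 0 members for liver over spleen, where 4 had an unadjusted p under 0.05 with a higher level in liver, against 2.59% of all genes. It gave no adjusted p for Birc5 and Ndc80 in any comparison, nor for Cdca3, Kif2c and Ccnb1 for any tissue difference. All of the 8 genes called by it missed the threshold in limma-trend and edgeR. Without thymus replicate 1 it called 4 members for liver over thymus (Nuf2, Aurkb, Bub1 and Anln, against 5.01% of all genes), without liver replicate 3 it called 2 (Anln and Aurkb, against 2.2%), and without both it called Aurkb alone (3.44%). For spleen over thymus, Anln and Aurkb were called as higher with either or both of those libraries left out, and Smc2 as lower except with both out. The share of all genes called was 5.47% without thymus replicate 1, 3.56% without liver replicate 3 and 4.41% without both.

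The 11 genes of the cyclin B and CDK1 switch had a median log2 fold change of 3.14 for liver over thymus over the 10 that were tested, all above 0 (8 of 10 by edgeR, median 2.27). Ccnb1, the cyclin that activates CDK1 at mitotic entry, was at 0.02, 1.19 and 0.04 in thymus, 67.0, 30.0 and 102 in liver, and 3.67, 10.9 and 21.5 in spleen. The 3 tissues did not overlap, in the order thymus, spleen, liver. Since no thymus library had more than 3 reads, the liver mean of 66.3 ± 36.0 (SD, n = 3) was at least 18.8-fold higher than a floor of 3 reads per library, with a fitted log2 fold change of 5.503 ± 1.63 (SE) and an adjusted p of 0.211 by limma-trend. Ccnb1 has several processed pseudogenes of 97.3% to 99.2% identity, and how reads shared with them were counted is not given in the sources used here.

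Cdk1 itself, the mitotic kinase, was at 0.02, 3.501 and 1.30 in thymus, 60.0, 47.2 and 193 in liver, and 0, 4.06 and 70.7 in spleen. Liver was above thymus without overlap, at least 28.4-fold over the same floor, or 15.2-fold without liver replicate 3. Aurka, the Aurora A kinase, showed the same separation (0.02, 2.34 and 2.56 in thymus against 35.6, 79.8 and 207 in liver), at least 30.4-fold, or 16.4-fold without liver replicate 3. In spleen both kinases were near 0 in replicates 1 and 2, apart from Cdk1 at 4.06 in replicate 2, and clearly detected in replicate 3, where Aurka reached 143.

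Plk1, the Polo-like kinase, was at 0 in liver replicate 1, 55.8 and 205 in replicates 2 and 3, and at most 1.19 in thymus. Its spleen values were 1.44, 1.32 and 149, so spleen stood above thymus without overlap only by 2 reads against 1. Ccna2, cyclin A, which acts in S phase and G2, was at 195, 82.1 and 55.2 in thymus, 616, 96.1 and 569.5 in liver, and 347, 187 and 423 in spleen. Its tissues overlapped, with a log2 fold change of 1.74 ± 1.09 (SE) for liver over thymus (limma-trend adjusted p = 0.547). Part of Ccna2 lies opposite exons of Exosc9, and strand use in the counting is not given in the sources used here.

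Cdc25b, a phosphatase that switches on CDK1, went another way, with 2.27, 542 and 883 in thymus, 53.0, 133 and 489 in liver, and 25.3, 104 and 139.6 in spleen. Its highest 2 values were in thymus replicates 2 and 3, and the sign of its liver over thymus change depended on single libraries and on the method: the log2 fold change was 0.39 with all, -2.18 without thymus replicate 1 and -0.45 without liver replicate 3. By edgeR on all 9 libraries it was -1.09. Ccnb2, Tpx2, Tacc3 and Cks2 overlapped between liver and thymus, and Cks2, a CDK1-binding subunit, had a higher mean in thymus (85.3) than in liver (58.5) because of 228 in thymus replicate 1. Cdc25c reached 24.6 in spleen replicate 1 and at most 1.99 in the other 8 libraries.

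Genes of chromosome condensation and DNA topology had the smallest median log2 fold change of the 7 groups for liver over thymus, 1.49 over 8 genes with 7 above 0 (7 by edgeR, median 0.60). Mki67, which coats mitotic chromosomes and marks cycling cells, was at 1670, 2098 and 2380 in thymus, 7015, 3813 and 7571 in liver, and 3278, 1522 and 5491 in spleen. Every liver library was above every thymus library, and spleen overlapped both. The liver mean of 6133 ± 2028 (SD, n = 3) was 2.99 times the thymus mean of 2049 ± 358 (SD, n = 3), with a log2 fold change of 1.53 ± 0.45 (SE) and a limma-trend adjusted p of 0.200. Among the members it had the third highest level per kilobase of exon, at 385 normalised counts averaged over the 9 libraries.

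Smc4 and Smc2 are the paired ATPases of condensin and the top members per kilobase of exon, at 1032 and 523 normalised counts. Smc4 was at 4075, 5949 and 4297 in thymus, 5663, 5190 and 7153 in liver, and 6914, 4755 and 4416 in spleen, with full overlap and a log2 fold change of 0.34 ± 0.30 (SE) for liver over thymus (limma-trend adjusted p = 0.691). Smc2 was at 4157, 5176 and 2516 in thymus, 4762, 2029 and 3047 in liver, and 1013, 1733 and 1369 in spleen.

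All spleen values of Smc2 lay below all values of the other 2 tissues. The spleen mean was 1372 ± 359.9 and the thymus mean 3949 ± 1342 (SD, n = 3 each), a log2 fold change of -1.50 ± 0.43 (SE) with a limma-trend adjusted p of 0.186, and for liver over spleen it was 1.20 ± 0.43 (SE, adjusted p = 0.9999). The tissues thus stood in another order for Smc2 than for Smc4, a difference between the genes that was not tested.

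Top2a, the DNA topoisomerase that untangles sister chromatids, ranged from 106 in thymus replicate 2 to 4143 in liver replicate 3, and its tissues overlapped. Kif4, a chromosome-bound kinesin, was at 0.02, 6.97 and 2.56 in thymus, 95.7, 126 and 128 in liver, and 16.4, 24.0 and 80.3 in spleen, so that the 3 tissues did not overlap. The other condensin genes, Ncapd2 and Ncapg, were lowest in thymus replicate 1 (11.2 and 0.02) and highest in thymus replicate 3 (1010 and 835). Kif4 overlaps Pdzd11 and Ncapg overlaps Lcorl on the opposite strand.

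At the centromere and kinetochore, 6 of 7 genes had a log2 fold change above 0 for liver over thymus, with a median of 2.34 (6 by edgeR, median 1.48). Nuf2, a subunit of the NDC80 complex that grips microtubules, gave the smallest p of all members in that comparison. Its values were 0.02, 2.34 and 1.30 in thymus, 264.5, 79.8 and 464 in liver, and 0.70, 30.9 and 128 in spleen. Thymus held at most 2 reads of it per library, and the liver mean of 269.5 ± 192 (SD, n = 3) was at least 76.3-fold above the 3-read floor (48.8-fold without liver replicate 3), with a fitted log2 fold change of 6.76 ± 1.93 (SE) and a limma-trend adjusted p of 0.194.

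Ndc80, the partner of Nuf2, did not share the thymus floor: it was at 0.02, 253 and 1.30 in thymus, 124, 154 and 297 in liver, and 308, 131 and 310.0 in spleen. Cenpf, a kinetochore protein of late G2, was separated between liver (262 to 395) and thymus (0.02, 9.28 and 134). Cenpa, the histone H3 variant that defines the centromere, was at 1607, 229 and 444 in thymus, 2718, 126 and 757 in liver, and 155, 203 and 205 in spleen. Every spleen value of Cenpa was below every thymus value, while liver spanned both, with a log2 fold change of -1.55 ± 1.06 (SE) for spleen over thymus (limma-trend adjusted p = 0.591).

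Cenpe, the kinesin that brings chromosomes to the spindle equator, was at 648, 245 and 47.7 in thymus, 37.4, 180.2 and 534 in liver, and 172, 229.7 and 830.5 in spleen. It overlapped throughout and was 1 of the 2 members, with Smc2, that had a log2 fold change below 0 for liver over thymus. Spc25 and Kif2c, another NDC80 subunit and a microtubule depolymerase, had no read in 1 liver library each and overlapped between all tissues.

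The chromosomal passenger complex, which corrects faulty attachments, has 4 listed genes, all with a log2 fold change above 0 for liver over thymus (median 2.75, and 1.67 by edgeR with 4 above 0). Aurkb, its kinase, was at 0.02, 4.66 and 6.32 in thymus, 17.4, 393 and 273 in liver, and 59.6, 209 and 278 in spleen. Both peripheral tissues lay above thymus without overlap, with log2 fold changes of 5.17 ± 1.79 and 5.45 ± 1.79 (SE) and limma-trend adjusted p of 0.287 and 0.248. Liver and spleen overlapped.

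Incenp, the scaffold, was at 5.63, 87.9 and 659 in thymus, 189, 342 and 527 in liver, and 254, 1316 and 364.5 in spleen. Cdca8, known as borealin, was at 0.02, 3.499 and 91.6 in thymus, 10.4, 60.9 and 627 in liver, and 386, 74.9 and 89.3 in spleen. In both, thymus replicate 3 reached the range of the other tissues. Birc5, or survivin, was below 20 in 6 of 9 libraries and at 129, 158 and 146 in replicate 3 of thymus, liver and spleen.

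All 5 spindle assembly checkpoint genes had a log2 fold change above 0 for liver over thymus, with a median of 3.48 (4 of 5 by edgeR, median 2.76). Ttk, the MPS1 kinase that starts the checkpoint signal, was at 0.02, 4.66 and 0.04 in thymus, 109, 26.6 and 138 in liver, and 0, 4.75 and 43.7 in spleen. Liver stood above thymus without overlap (log2 fold change 5.37 ± 1.85 (SE), limma-trend adjusted p = 0.287), and spleen overlapped both. Mad2l1, which forms the inhibitor of the anaphase-promoting complex, was at 65.0, 156 and 25.1 in thymus, 298, 214.5 and 883 in liver, and 49.1, 241 and 507 in spleen, again with liver above thymus.

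Bub3, which has roles outside mitosis as well, behaved unlike the rest. It was at 446, 1800 and 3053 in thymus, 1706, 1172 and 1569 in liver, and 833, 1385 and 1299 in spleen, with a log2 fold change of 0.12 ± 0.62 (SE) for liver over thymus (limma-trend adjusted p = 0.961). That change was -0.68 without thymus replicate 1, and -0.24 by edgeR on all 9 libraries. Bub1, a checkpoint kinase, was separated between thymus (4.66 to 111) and liver (144 to 502), while Bub1b overlapped because of 11.3 in liver replicate 1.

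Among the anaphase-promoting complex and its substrates, 4 of 4 genes had a log2 fold change above 0 for liver over thymus, with a median of 2.72 (3 of 4 by edgeR, median 2.105). Pttg1, or securin, which guards sister chromatid cohesion until anaphase, was at 168, 170.0 and 293 in thymus, 1435, 599.9 and 576 in liver, and 765, 956 and 239 in spleen. Every liver value exceeded every thymus value, the liver mean of 870 ± 489 being 4.13 times the thymus mean of 210.5 ± 71.8 (SD, n = 3 each), with a log2 fold change of 1.96 ± 0.79 (SE) and a limma-trend adjusted p of 0.357. It is short and well covered: per kilobase of exon it was the fourth of the 48, at 289 normalised counts.

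Ube2c, the ubiquitin-conjugating enzyme of the complex, was at 0.02, 164 and 0.04 in thymus, 407, 23.1 and 291 in liver, and 144, 109 and 310.0 in spleen. A single thymus library, replicate 2, set its overlap with the other tissues. Ube2c shares bases with Tnnc2 on the opposite strand, and which of the pair the reads in thymus replicate 2 came from cannot be told apart. Cdc20, an activator of the complex, was near 0 in liver replicate 1 and spleen replicate 1 (1.72 and 0.70) and at 301 and 200 in replicate 3 of the same tissues. Cdca3, a trigger of mitotic entry, was at most 100.3 in every library.

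The 9 spindle and cytokinesis genes all had a log2 fold change above 0 for liver over thymus (median 2.63), with 7 of 9 above 0 by edgeR (median 1.56). For spleen over thymus 4 of them were above 0 and the median was -0.07, which turned to 0.85 by edgeR with 5 above 0. Anln, or anillin, which organises the cleavage furrow, was at 0.02, 1.19 and 0.04 in thymus, 0, 258 and 177 in liver, and 342, 44.6 and 614 in spleen. It was the member with the largest fitted change of spleen over thymus, 7.33 ± 2.17 (SE, limma-trend adjusted p = 0.200), and the spleen mean of 334 ± 285 (SD, n = 3) was at least 94.5-fold above the 3-read floor in thymus, or 54.8-fold without spleen replicate 3. With no read in liver replicate 1, liver overlapped thymus.

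Kif11, the motor that separates the spindle poles, was at 44.9, 679 and 619 in thymus, 574, 731 and 1230 in liver, and 109, 272 and 313 in spleen. Liver lay above spleen without overlap, while thymus replicates 2 and 3 were within the liver range and replicate 1 was below all spleen values. Nusap1, a microtubule bundler, was at 362, 1210 and 57.7 in thymus, 564, 258 and 624 in liver, and 225, 63.2 and 361 in spleen, with overlap in every comparison. Its exons overlap those of Oip5 on the opposite strand.

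Hmmr, a spindle assembly factor, was separated between thymus (1.14 to 8.13) and both liver (21.7 to 412.5) and spleen (12.6 to 94.2). Ect2, the activator of RhoA at the furrow, was separated between thymus (0.02 to 53.2) and liver (131 to 273), and peaked at 970.2 in spleen replicate 1. Racgap1, the partner of Ect2, was higher in liver (134 to 787) than in spleen (24.0 to 54.5) without overlap. Prc1, Kif23 and Kif20a overlapped in all comparisons, and the last has 1271 exon bases opposite Cdc23.

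**Figure D5:**
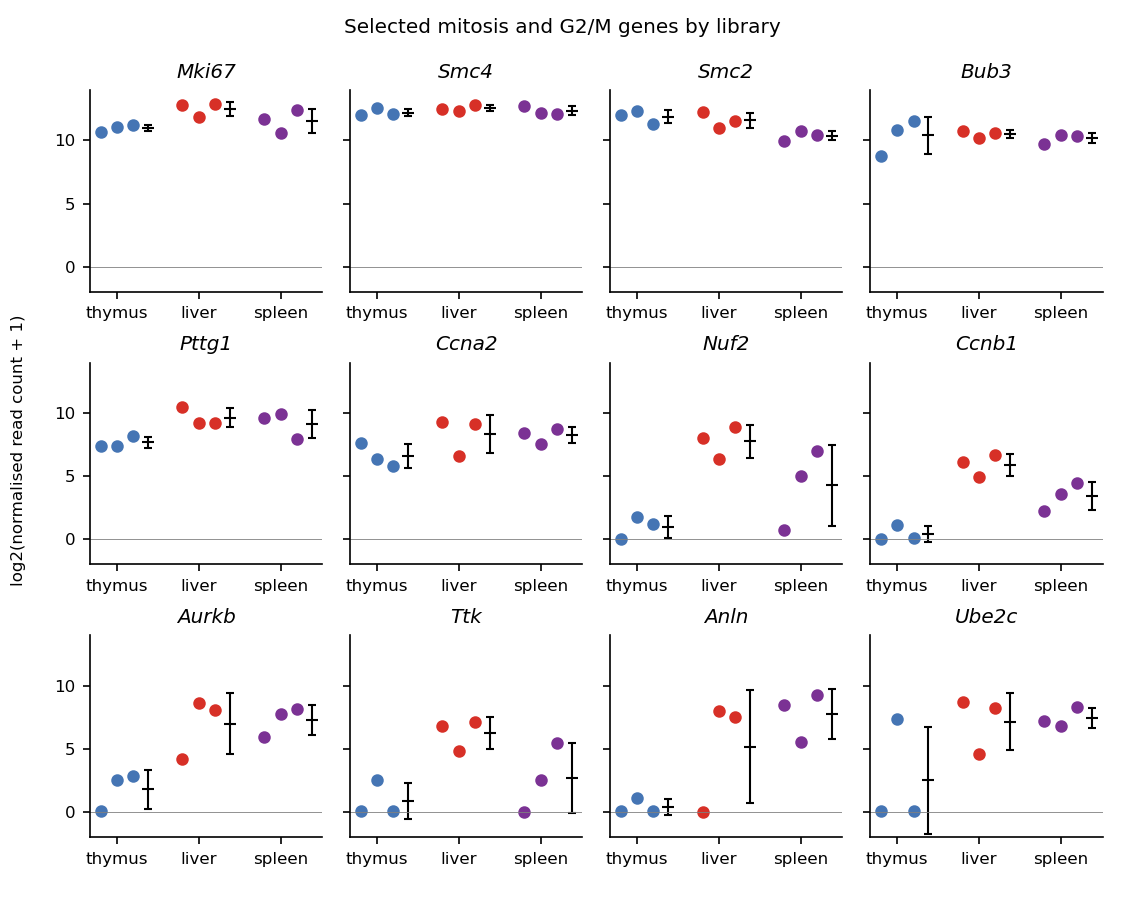
Log2(normalised read count + 1) (vertical axis) of 12 members in each library, by tissue; points are replicates 1, 2 and 3 from left, bars the mean ± SD (n = 3) of the log2 values. Smc4 is at like levels in all tissues, and Bub3 overlaps between them but runs from 446 to 3053 normalised counts within thymus. Smc2 is lowest in spleen, and Nuf2, Ccnb1, Aurkb and Ttk are near 0 in thymus and higher in all 3 liver libraries.

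Replicates of one tissue disagreed more for these genes than for most. The median SD of log2(value + 1) over the members was 2.20 in thymus, 1.25 in liver and 1.29 in spleen, against 1.34, 0.76 and 0.77 over all genes tested. In thymus 13 of 47 members, or 27.7%, had at most 3 reads in 1 library and 100 or more in another, against 14.5% of all genes. In liver it was 5 members and in spleen 6, or 10.6% and 12.8%, against 6.17% and 5.12%. The members were not matched to other genes of the same level.

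Genes of the preceding cell cycle phase had smaller median changes. Of 34 S phase and replication genes, 0 passed limma-trend or edgeR in any comparison. Without adjustment, 5 had a limma-trend p under 0.05 with a higher level in liver than thymus and 0 with a lower one, against 7.72% and 3.92% of all genes. In spleen over thymus it was 1 higher and 2 lower, against 7.56% and 4.13%, and for liver over spleen 2 higher and 0 lower, against 1.72% and 1.31%. For liver over thymus 28 had a log2 fold change above 0, against 59.9% of all genes, and 5 were higher in liver without overlap, against 9.61%. Their median log2 fold change was 1.20 for liver over thymus, 0.86 for spleen over thymus and 0.34 for liver over spleen, against 2.57, 1.64 and 1.06 for the mitosis and G2/M genes. The difference between the lists was not tested.

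Of 42 listed regulators of this programme, 39 were tested and 0 passed limma-trend or edgeR in any comparison. Without adjustment, 3 had a limma-trend p under 0.05 with a higher and 2 with a lower level in liver than thymus, against 7.72% and 3.92% of all genes. Relative to thymus, 3 were higher and 3 lower in spleen, against 7.56% and 4.13%, and for liver over spleen 2 higher and 0 lower, against 1.72% and 1.31%. Their median log2 fold changes were 0.55, 0.39 and 0.17, and -0.09, -0.05 and -0.02 by edgeR. Rbl2, or p130, the pocket protein of the DREAM complex, was at 9416, 3445 and 12500 in thymus, 16410, 16610 and 13980 in liver, and 12010, 16610 and 18500 in spleen. Each liver value exceeded each thymus value (log2 fold change 1.08, limma-trend adjusted p = 0.276). Btg2, an antiproliferative gene, was the reverse, at 4610, 6375 and 2675 in thymus, 1840, 2498 and 1545 in liver, and 1649, 3041 and 1969 in spleen.

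Cdk4, the G1 kinase, was at 2949, 2885 and 2452 in thymus, 1921, 2676 and 2253 in liver, and 993, 1432 and 796 in spleen, with spleen below both other tissues without overlap (log2 fold change -1.40 against thymus, limma-trend adjusted p = 0.187). Cdk4 was the 1 regulator that DESeq2 called, as lower in spleen than thymus, where it called 2.1% of all genes as lower. E2f2, an activating E2F factor, was at 0.02, 97.2 and 35.15 in thymus, 132, 75.5 and 751 in liver, and 0, 0 and 147 in spleen. Its tissues overlapped in every comparison (limma-trend adjusted p = 0.9999 for liver over spleen). The 3 factors that follow were picked after their values were seen. Foxm1, an activator of the G2 genes, was at 3.38, 713.5 and 71.5 in thymus, 3009, 130.4 and 612 in liver, and 63.3, 37.8 and 52.1 in spleen, so liver overlapped thymus and lay above spleen. Mybl2, which acts with it, was at 0.02, 1.19 and 0.04 in thymus, 22.6, 5.98 and 215 in liver, and 0, 0.63 and 158 in spleen. Its liver values lay above thymus, and spleen overlapped both. E2f5, another E2F factor, lay the other way, with 402, 306 and 541 in thymus, 36.5, 157 and 67.8 in liver, and 362, 114 and 148 in spleen.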

How the data were processed

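Total RNA of iNKT1 cells was made into ultralow-input libraries and sequenced for 76 cycles, per the labels' protocols. Trimmomatic 0.33, TopHat2 2.1.0, HTSeq 0.6.1, edgeR and the build mm10 are named in the submitters' processing notes, with no order or settings. The deposited values are the authors' normalised read counts per gene and library, used here as a signal. They are not whole numbers, but in each library they lie on a ladder of equal steps, so reads were recovered by rounding; among 32994 values no larger than 20 reads, 97.0% were whole to within 0.1 (83.7% in liver replicate 3). Thymus replicate 2 has an extra letter in its column name that the labels do not explain. Gene symbols matched 13359 of 14004 identifiers.

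The test planned for counts was replaced by the planned fallback for normalised values: limma-trend (limma 3.58.1, R 4.3.3) on log2(value + 1), over the 13309 genes that reached 1 in 3 or more libraries, in 1 fit of all 9 libraries with a term per tissue, two-sided, Benjamini-Hochberg, threshold 0.05. The added 1 shrinks fold changes of low genes, but 1 library near 0 can widen them. For Ncapg, at 0.02 in thymus replicate 1, the fitted log2 fold change of liver over thymus was 3.13, with a ratio of means of 1.26. edgeR 4.0.16 (22, 37 and 2 genes called for liver over thymus, spleen over thymus and liver over spleen) and DESeq2 1.42.0 (451, 508 and 24) were run on the recovered reads as alternatives. The procedure was tested on simulated data, with genes changed in liver by known folds. For liver over thymus limma-trend called 13.9% of the 4-fold and 48.4% of the 32-fold changes, and 5.02% of its calls were false. Many true changes were thus missed, so a gene that did not pass cannot be taken as unchanged. The members and lists were chosen with earlier results of these data known. Full values are given for members with the smallest p per comparison, the highest means and for each role, and any member may be named; other genes are named by the smallest p among the regulators unless said otherwise. Gene positions and overlaps came from GENCODE for GRCm38, the same assembly as mm10. Cks2, Mad2l1, Mki67, Ndc80 and Racgap1 also match pseudogenes at 95.0% identity or more, Mki67 over 216 of 10061 bases. A DESeq2 result on the S phase list is not reported here.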

Additional observations from a re-analysis of the deposited data

How the results depend on the processing

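No member passed limma-trend under any alternative, or edgeR, which was run only on all 9 libraries. Only DESeq2 called any (7 for liver over thymus, 4 for spleen over thymus, 2 for any tissue difference). The medians of the members kept their sign in every alternative. Leaving out 1 library in turn gave medians of 1.90 to 3.45 for liver over thymus, 0.53 to 2.07 for spleen over thymus and 0.61 to 1.65 for liver over spleen, and the median for liver over thymus was 1.41 without thymus replicate 1 and liver replicate 3 together, an alternative chosen after seeing the data. Members without overlap numbered 15 to 22, 11 to 17 and 6 to 19 in those comparisons with 1 library left out. By direction they were 14 to 22 higher and 0 to 3 lower for liver over thymus (12.8% to 19.5% and 8.27% to 11.6% of all genes), 9 to 14 and 2 to 5 for spleen over thymus (12.9% to 19.1% and 9.31% to 11.8%), and 5 to 18 and 0 to 2 for liver over spleen (10.1% to 11.7% and 10.6% to 12.5%). With both left out, 17 were higher and 5 lower for liver over thymus, against 20.1% and 16.05% of all genes. For spleen over thymus it was then 9 higher and 5 lower, against 14.7% and 11.6%. These counts include Cdc25c, which was not tested. For liver over thymus it counted as lower with both out and without liver replicate 3. It had no read in the libraries kept, so only the thymus offset set that direction. Fewer libraries alone make overlap rarer.

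The number of all genes called moved widely. For liver over thymus (43) it was 22 by edgeR, 451 by DESeq2, 16 with only the 6 samples compared, 7 to 155 with 1 library left out and 19 with both out. For spleen over thymus (53) it was 508 by DESeq2, 11 with only the 6 samples, 9 to 134 with 1 library left out and 26 with both out. For liver over spleen (2) it was 24 by DESeq2, 18 with array weights, 7 with only the 6 samples and 0 to 3 with 1 library left out. For any tissue difference (46) it was 30 by edgeR, 355 by DESeq2, 74 with array weights, 18 to 75 with 1 library left out and 23 with both out. With the replicate number as a block, 4 genes passed for liver over spleen in place of 2 and no other count moved by over 1.5 times. Same-numbered samples correlated by -0.00073 to 0.0891 in their deviations from the tissue means over all genes tested, most of them positively. Differently numbered samples correlated by -0.0867 to 0.0484, most of them negatively. Not every sample correlated best with its own number, so the numbers were not treated as pairs. The mean of the members nonetheless rose with the replicate number in every tissue, which was not tested.

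The sign of liver over thymus changed under at least 1 alternative for 14 of 47 members, with 1 library left out for 11 and by edgeR for 6. That of spleen over thymus changed for 19 members in all and that of liver over spleen for 17. Bub3 had -0.24 by edgeR, -0.26 by DESeq2, -0.36 with array weights and -0.73 with both libraries out, and -0.68 to 0.71 with 1 left out. Cdc25b had -1.09, -1.07, -0.23 and -3.03 in the same order, and -2.18 to 1.86. Cenpa had -0.63 with array weights and -0.82 to 1.39 with 1 library left out, and Cenpe 0.74 and -1.37 to 0.65. Nusap1 had -0.16 by edgeR, -0.19 by DESeq2 and -0.56 to 1.63. Smc2 had -0.61 to 0.0100, and Kif11 -0.00096 with both libraries out. The cause was not tested for any of these. By DESeq2 the changes that passed were 1.57 for Mki67, 5.18 for Hmmr, 5.20 for Kif4, 5.97 for Aurkb, 7.29 for Ccnb1, 7.84 for Nuf2 and 8.39 for Anln for liver over thymus, and 5.47 for Nuf2, 5.63 for Aurkb, 9.60 for Anln and -1.57 for Smc2 for spleen over thymus. For the members with full values, 516 other values kept direction and side of the threshold.

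Depth limits members with few reads: 31 of 48 had at most 3 reads in at least 1 library, 1 read weighs 6.05 in liver replicate 3, and nothing separates cells in cycle from RNA per cell.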
